A study of Mus musculus with 9 samples.

Results

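The interferon response genes examined here are 78 of the 22564 genes in the deposited mouse blastocyst table. They were chosen by symbol, and take in the interferon receptors, the JAK kinases and Tyk2, the STAT factors, the interferon regulatory factors (IRFs) with their binding proteins, and the Ifi, Ifit, Ifitm, Oas, Isg, Gbp, Mx and Rsad2 effector genes. The rule uses the symbol and no measured value. Total RNA was sequenced from 9 libraries of C57BL/6 blastocysts at day 3.5 after fertilization, each a pool of blastocysts, in 3 groups of 3 libraries. The ICSI group (replicates 2, 5 and 6) was made by injecting normal sperm into oocytes. The ICSI-AOA group (replicates 1, 4 and 5) was made in the same way and then given artificial oocyte activation (AOA) with ionomycin, a calcium ionophore. The dICSI-AOA group (replicates 1, 4 and 5) received ionomycin after injection of activation-deficient sperm, whose heads had been incubated to lower their power to activate the oocyte. Activation-deficient sperm without ionomycin were not analysed here, so the sperm effect can be read under ionomycin only.

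Type I interferons bind a receptor of the Ifnar1 and Ifnar2 chains, and interferon gamma binds Ifngr1 and Ifngr2. The receptors work through the kinases Jak1, Jak2 and Tyk2, which phosphorylate STAT proteins. Stat2 and Irf9 are parts of the complex ISGF3, which binds the interferon-stimulated response element (ISRE) in front of effector genes, and STAT dimers bind the GAS element. Early embryos and pluripotent stem cells are known for a weak interferon response, while Stat3 carries the signal of the cytokine LIF and Stat5a that of growth hormone and prolactin receptors. The comparisons ask whether ionomycin, alone or with activation-deficient sperm, left these genes at another level in the blastocyst.

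The ISRE sequence is shown because, among the genes of this set with a promoter to search, it was found only in those with fewer than 20 fragments. Promoters of 250 bases before to 50 bases after the start (RefSeq, GRCm38.p6) were found for 61 of the 78 genes. The ISRE core was searched as GAAANNGAAA on both strands and the GAS element as TTCNNNGAA, which is its own reverse complement. Windows from 4 of these promoters follow, 5′ to 3′ on the gene's strand, with each ISRE match in capitals (matches that begin with TTTC are the core on the other strand). They are Isg15 at chr4:156200855-156200916 (minus strand), Ifit1 at chr19:34640765-34640833 (plus strand), Oas1a at chr5:120907526-120907565 (minus strand) and Stat2 at chr10:128270256-128270305 (plus strand).
Isg15: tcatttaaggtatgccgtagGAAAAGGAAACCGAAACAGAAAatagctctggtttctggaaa
Ifit1: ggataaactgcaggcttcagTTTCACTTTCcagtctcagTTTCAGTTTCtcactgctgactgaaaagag
Oas1a: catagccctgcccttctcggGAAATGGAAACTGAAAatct
Stat2: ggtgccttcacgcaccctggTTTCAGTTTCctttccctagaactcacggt

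A gene was counted if any of its promoters matched. The ISRE core was found for 21 of the 61 genes (34.4%), against 3.99% of all 27025 genes with a promoter. None of the 18 genes with 20 or more fragments had it. It was found for 11 of 31 genes (35.5%) with 1 to 19 fragments and for 10 of 12 genes (83.3%) listed at 0. The GAS letters were found for 15 of 61 genes (24.6%), against 9.55% of all, and for 4 of 18, 7 of 31 and 4 of 12 of the same classes. These are matches of letters and not measured binding. All genes were not split by fragments in the same way, so no background share stands beside each class. Several of the matches are in Gbp and Oas genes, which are related copies and not independent. Whether the split follows gene family was not tested. Promoters of Ifi27l2b and Ifi27 were not among those analysed.

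Levels are given as fragments, meaning sequenced read pairs per gene, and as FPKM, which divides by transcript length and by depth. Libraries held 128176 to 172307 fragments, a shallow depth at which only 1788 to 2033 genes reached 10 fragments in a library. Of the 78 genes, 58 (74.4%) had at least 1 fragment in some library, against 53.7% of all 22564 genes. A set of 22 genes (28.2%) had 20 or more fragments over the 9 libraries, against 18.5% of all genes, and 36 had 1 to 19, of which 21 had 3 or fewer. Together the 78 genes took 2412 fragments, 0.176% of the total, and Irf9, Stat5a, Irf5, Oas1h and Irf7 held 1014 of them (42.0%). A count of 0 allows up to 3 fragments over all libraries, or 2.19 CPM (fragments scaled to a common library size), by counting error alone. Pou5f1, Nanog, Sox2 and Gata3, which blastocysts use, were also listed at 0, so the 20 interferon response genes without fragments are called only listed at 0.

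**Figure D1:**
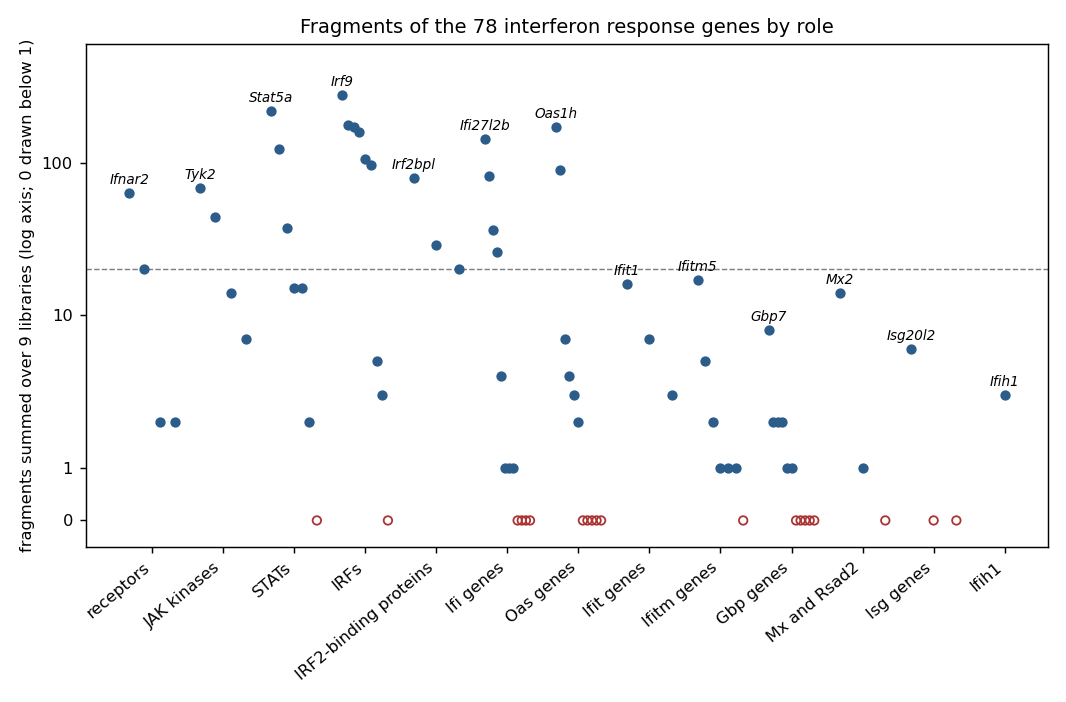
Each point is 1 of the 78 genes, placed by role on the horizontal axis and by its fragments summed over 9 libraries on the vertical log axis; open circles are the 20 genes listed at 0 and the dashed line marks 20 fragments. Some regulatory factors lie high (Irf9 with 277 fragments, Stat5a with 218) and others low (Stat2 with 15, Irf8 with 5). Among effectors, Oas1h (171) and Ifi27l2b (142) lie above the line, and no Ifit, Ifitm, Gbp, Mx or Isg gene reaches it.

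The receptors were sparse. Ifnar2, the signalling chain of the type I receptor, had 63 fragments in all. It had 5, 4 and 2 fragments in the ICSI libraries, 6, 13 and 9 in ICSI-AOA, against 4, 16 and 4 in dICSI-AOA. The ICSI-AOA libraries all lay above the ICSI libraries, while the dICSI-AOA mean was carried by replicate 4. Ifnar2 shares 315 exon bases with Gm21970 on its own strand. Ifngr2, a chain of the interferon gamma receptor, had 4, 1 and 1 fragments in ICSI, 2, 1 and 3 in ICSI-AOA, against 3, 2 and 3 in dICSI-AOA, and the groups overlapped. Their partner chains Ifnar1 and Ifngr1 had 2 fragments each.

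All 4 kinases were detected. Tyk2, the kinase of Ifnar1, had 7, 7 and 3 fragments in ICSI, 11, 6 and 6 in ICSI-AOA, against 12, 6 and 10 in dICSI-AOA, and the groups overlapped. Its exons overlap 1700084C06Rik on the other strand over 554 bases. Jak3, which pairs with the common gamma chain of interleukin receptors and not with interferon receptors, had 9, 7 and 7 fragments in ICSI, 3, 3 and 4 in ICSI-AOA, against 4, 4 and 3 in dICSI-AOA. Every AOA library lay below every ICSI library. Jak3 shares 404 exon bases on its own strand with Insl3, so their fragments are hard to tell apart. Jak1 had 14 fragments and Jak2 had 7.

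Among the STATs, Stat5a was the most abundant, with 218 fragments. It had 19, 36 and 26 fragments in ICSI, 24, 26 and 15 in ICSI-AOA, against 30, 13 and 29 in dICSI-AOA, and the groups overlapped. Stat6, the factor of interleukin 4 signalling, had 8, 11 and 16 fragments in ICSI, 12, 9 and 18 in ICSI-AOA, against 15, 20 and 13 in dICSI-AOA, which overlapped again. Per length, Stat5a stood at 6.32 FPKM over all libraries and Stat6 at 4.56. Stat2, whose ISRE window is printed above, had 15 fragments. They were 2, 2 and 6 in ICSI, 1, 0 and 2 in ICSI-AOA, against 1, 0 and 1 in dICSI-AOA, and its mean of 0.309 FPKM was too low for the test. Stat3 also had 15 fragments, with 1 in each ICSI library, 1, 4 and 2 in ICSI-AOA, against 1, 1 and 3 in dICSI-AOA. Its deposited FPKM was 0.42 ± 0.38 (SD, n = 3) in ICSI, 5.23 ± 5.6 in ICSI-AOA and 0.38 ± 0.40 in dICSI-AOA, so the ICSI-AOA mean had a spread larger than itself and rested on 7 fragments. Stat5a and Stat3 are neighbours on chromosome 11 whose exons overlap by 72 bases on opposite strands. Stat5b had 2 fragments and Stat4 was listed at 0.

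The IRFs were the best measured class, with 992 of the 2412 fragments and 6 of 9 genes above 20. Irf9, the DNA-binding part of ISGF3 (chromosome 14, 55603571 to 55610030, plus strand, mm10), led with 277 fragments, and shares part of its exons with Rnf31 on its own strand. It had 25, 34 and 47 in ICSI, 37, 25 and 38 in ICSI-AOA, against 32, 13 and 26 in dICSI-AOA. ICSI replicate 6 was the highest of the 9 libraries and dICSI-AOA replicate 4 the lowest. In FPKM, Irf9 stood at 35.5 ± 13.8 (SD, n = 3) in ICSI, 36.9 ± 14.3 in ICSI-AOA and 27.0 ± 11.8 in dICSI-AOA, and these spreads overlapped.

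Irf5, a factor downstream of Toll-like receptors, had 14, 22 and 16 fragments in ICSI, 22, 23 and 24 in ICSI-AOA, against 20, 22 and 14 in dICSI-AOA. Per length it had the highest level of the 78 genes, 53.0 FPKM over all libraries. Of its exon bases, 411 are shared with Tnpo3 on the other strand, a gene with 14 fragments here. Irf7, the amplifier of type I interferon transcription, had 22, 14 and 12 fragments in ICSI, 19, 15 and 24 in ICSI-AOA, against 22, 20 and 23 in dICSI-AOA. Scaled for depth, Irf5 was at 112, 143 and 118 CPM in ICSI and at 148, 154 and 162 in ICSI-AOA, so these groups did not overlap, while dICSI-AOA overlapped both. Irf7 overlapped between all groups. Irf3, which starts interferon beta transcription, had 13, 11 and 3 fragments in ICSI, 8, 10 and 16 in ICSI-AOA, against 15, 11 and 9 in dICSI-AOA. Irf1, an activator of interferon gamma targets, had 9, 14 and 12 in ICSI, 7, 15 and 12 in ICSI-AOA, against 18, 11 and 7 in dICSI-AOA. Irf1 overlaps Gm17334 by 135 exon bases on the other strand, a gene with 1222 fragments here. Irf8 and Irf4, which act in blood cells, had 5 and 3 fragments, and Irf2 was listed at 0.

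The IRF2-binding proteins are corepressors chosen by their symbol. Irf2bpl had 7, 12 and 10 fragments in ICSI, 13, 8 and 8 in ICSI-AOA, against 6, 9 and 6 in dICSI-AOA. Irf2bp1 had 4, 0 and 5 in ICSI, 1, 3 and 4 in ICSI-AOA, against 2, 7 and 3 in dICSI-AOA. Irf2bp2 had 6, 0 and 4 in ICSI, 1, 4 and 3 in ICSI-AOA, against 0, 2 and 0 in dICSI-AOA. All of them overlapped between groups.

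Among the effectors, fragments were concentrated in a few genes that are not the classical ones. Ifi27l2b, a member of a small mitochondrial protein family (chromosome 12, 103450898 to 103457223, minus strand), had 15, 16 and 35 fragments in ICSI, 12, 21 and 11 in ICSI-AOA, against 19, 7 and 6 in dICSI-AOA. ICSI replicate 6 was again the highest library. Its neighbour Ifi27 (103434211 to 103440239, plus strand) had 3, 9 and 8 fragments in ICSI, 3, 1 and 4 in ICSI-AOA, against 3, 3 and 2 in dICSI-AOA. The third gene of the family, Ifi27l2a, had 1 fragment, and fragments that match more than 1 of these paralogs leave each count uncertain. In FPKM, Ifi27l2b stood at 17.7 ± 9.996 (SD, n = 3) in ICSI, 12.7 ± 3.1 in ICSI-AOA and 10.2 ± 7.4 in dICSI-AOA. Ifi27 stood at 12.2 ± 5.2 in ICSI, 5.69 ± 3.34 in ICSI-AOA and 6.31 ± 2.02 in dICSI-AOA.

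Ifi35, a partner of Nmi, had 5, 12 and 9 fragments in ICSI, 5, 18 and 7 in ICSI-AOA, against 3, 10 and 13 in dICSI-AOA. Ifi47, a GTPase of the interferon-induced p47 family, had 6, 2 and 3 in ICSI, 3, 1 and 0 in ICSI-AOA, against 7, 1 and 3 in dICSI-AOA. Neither separated the groups.

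The Oas family, of which some members make the second messenger that switches on RNase L, was carried by Oas1h and Oasl1, with 171 and 90 of its 277 fragments. Oas1h had 22, 12 and 30 fragments in ICSI, 13, 23 and 10 in ICSI-AOA, against 34, 10 and 17 in dICSI-AOA, and the spread inside each group was wide. Oasl1, which lacks that enzyme activity and is known in mouse to limit translation of Irf7, had 11, 9 and 19 in ICSI, 4, 8 and 19 in ICSI-AOA, against 10, 4 and 6 in dICSI-AOA. Oas1a, Oas1c, Oas1d, Oas1e and Oas1g were listed at 0, and near-identical copies in this cluster make the split between Oas1 genes uncertain.

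The classical effectors were near the floor. Ifit1, which binds foreign RNA caps, had 16 fragments, Ifit3 had 7 and Ifit2 had 3. Ifitm5, a bone protein of the membrane Ifitm family, had 17, while Ifitm1 and Ifitm2, which block virus entry, had 5 and 2 and Ifitm3 was listed at 0. The Gbp genes, GTPases that attack pathogen vacuoles, had 16 fragments in 6 of 11 genes, with Gbp7 at 8. Mx2, which GENCODE vM21 types as a polymorphic pseudogene, had 14 fragments, of which 6 were in ICSI replicate 5. Rsad2 (viperin) had 1. Isg15, the ubiquitin-like protein whose ISRE window is printed above, was listed at 0 with Mx1 and Isg20, and Isg20l2, a ribosomal RNA nuclease, had 6. Ifih1, the RNA sensor MDA5, had 3.

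**Figure D2:**
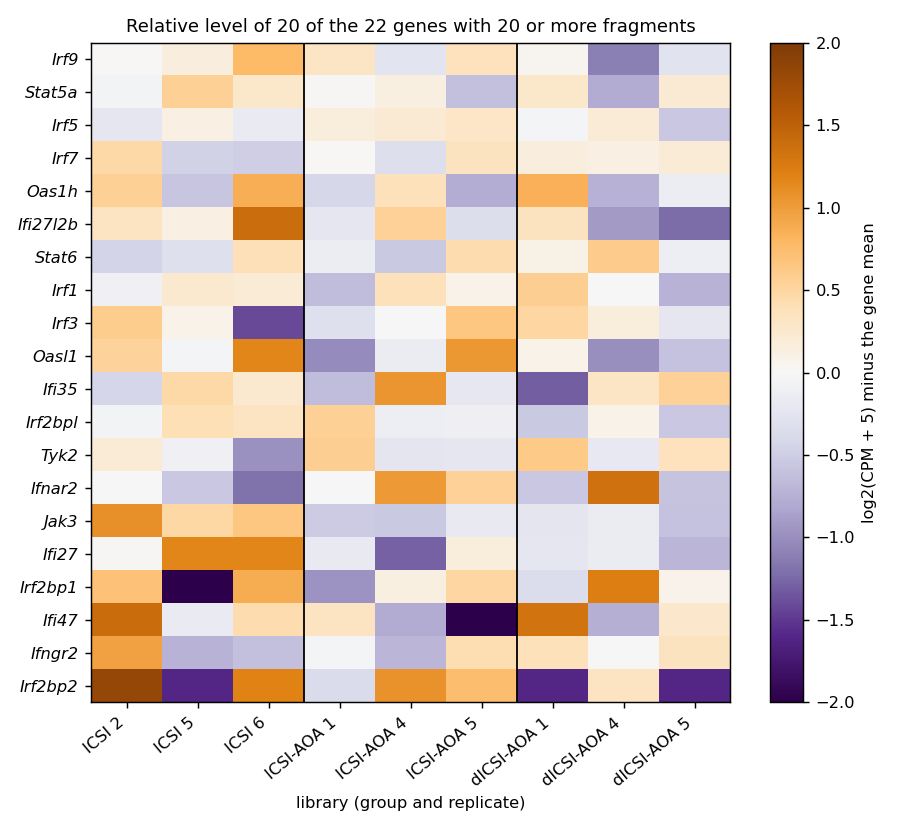
Colour gives log2(CPM + 5) minus the gene's mean over the 9 libraries, for 20 of the 22 genes with 20 or more fragments (rows) in each library (columns, with lines between groups). The genes do not move as a block with the group: Irf9, Ifi27l2b, Oasl1 and Oas1h are high together in ICSI replicate 6, where Irf3 and Ifnar2 are low.

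Library by library, 29 to 37 of the 78 genes were detected, and they took 1502 CPM in dICSI-AOA replicate 4 to 2208 in ICSI replicate 6. ICSI replicate 6 was the highest library for 5 of the 21 genes tested (23.8%), against 12.3% of all 4304 tested genes, and the lowest for 4, against 12.1% of all. The library dICSI-AOA replicate 4 was the highest for 4 genes (19.05%), against 11.9% of all. Replicate 5 of dICSI-AOA was the lowest for 5 genes, against 10.06% of all.

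Differences between groups were tested with edgeR's quasi-likelihood test on fragments, for the 21 genes with a mean of at least 1 FPKM among 4304 such genes. A gene was called when its fold exceeded 1.3 with an unadjusted p under 0.05, the rule of the study's methods, and the adjusted p over all 4304 genes (Benjamini-Hochberg) is given beside it. No interferon response gene reached an adjusted p of 0.05 in any of the 3 comparisons, and 1, 1 and 6 of all genes did. The p-values measure the spread between these libraries. Groups that do not overlap are only described, since the share of all tested genes that separate in this way was not counted.

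Between ICSI-AOA and ICSI, Jak3 was the 1 gene of 21 called (4.76%), against 7.06% of all tested genes and 4.07% called lower, so the share was near the background. Jak3 stood at 0.41 of the ICSI level (log2 fold change -1.29, SE 0.59, adjusted p = 0.655 by edgeR). It passed the filter only through ICSI, at 1.54 FPKM, against 0.905 in ICSI-AOA and 0.858 in dICSI-AOA, so filter and call share those values. Ifi27 (log2 fold change -1.37, SE 0.68) and Ifnar2 (1.21, SE 0.63) differed by as much but missed the unadjusted threshold, with adjusted p = 0.704 and adjusted p = 0.717 by edgeR. The other 18 genes ran from -1.50 for Ifi47 to 1.03 for Stat3, which passed the filter only through its ICSI-AOA FPKM. The median over the 21 genes was -0.10, against -0.02 over all tested genes, with 10 genes above 0 and 11 below. With the authors' own scaling, under which the median of all tested genes moved to 0.25, the call passed from Jak3 to Ifnar2. Jak3 was not called without ICSI replicate 2 or 6 or ICSI-AOA replicate 1 or 4 (log2 fold change -1.34 to -1.08), and without ICSI replicate 6 no gene was.

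Between dICSI-AOA and ICSI, 4 of the 21 genes were called (19.05%), against 6.6% of all tested genes, and all 4 were lower in dICSI-AOA, against 3.51% of all genes called lower. They were Irf9, Ifi27l2b, Oasl1 and Ifi27, that is 1 factor of the ISGF3 complex and 3 effectors. Ifi27l2b stood at 0.439 of the ICSI level (log2 fold change -1.19, SE 0.44, adjusted p = 0.542 by edgeR). Irf9 stood at 0.604 (log2 fold change -0.73, SE 0.31, adjusted p = 0.648 by edgeR). Oasl1 stood at 0.464 (log2 fold change -1.11, SE 0.53) and Ifi27 at 0.377 (-1.41, SE 0.68), both with an adjusted p of 0.735 by edgeR. Irf9, Ifi27l2b and Oasl1 overlapped between the groups, with 1 or more dICSI-AOA libraries above the lowest ICSI library. Ifi27 tied at 3 fragments but did not overlap once scaled for depth, at 24.0, 58.7 and 59.0 CPM in ICSI and 19.3, 20.8 and 12.7 in dICSI-AOA. Jak3 just missed the unadjusted threshold at -1.19 (SE 0.58, adjusted p = 0.735 by edgeR), and its groups did not overlap.

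Without ICSI replicate 6, or without dICSI-AOA replicate 4, none of the 4 genes was called. Without ICSI replicate 6 the log2 fold change of Irf9 shrank to -0.45, that of Ifi27l2b to -0.67 and that of Oasl1 to -0.72, while Ifi27 stayed at -1.23. Without dICSI-AOA replicate 4 Irf9 was at -0.47, Ifi27l2b at -0.995, Oasl1 at -0.88 and Ifi27 at -1.53, the last larger than with all libraries. Without dICSI-AOA replicate 5 only Irf9 was called, with Ifi27l2b at -0.89, Oasl1 at -1.02 and Ifi27 at -1.22. Without dICSI-AOA replicate 1 Ifi27l2b was larger, at -1.88. Other lost calls left the fold nearly as it was, with Oasl1 at -1.15 without ICSI replicate 2 and Ifi27 at -1.48 to -1.22 without ICSI replicate 5, dICSI-AOA replicate 1 or ICSI-AOA replicate 1 or 5. With the authors' factors as the scaling, under which the median of all tested genes moved to 0.34, the split turned from 4 lower to 1 higher (Ifnar2), though Irf9, Ifi27l2b, Oasl1 and Ifi27 kept values below 0. The median of the 21 genes was -0.10, against -0.01 for all tested genes. Both comparisons use the same ICSI libraries, so their like values for Jak3 and Ifi27 are not independent.

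**Figure D3:**
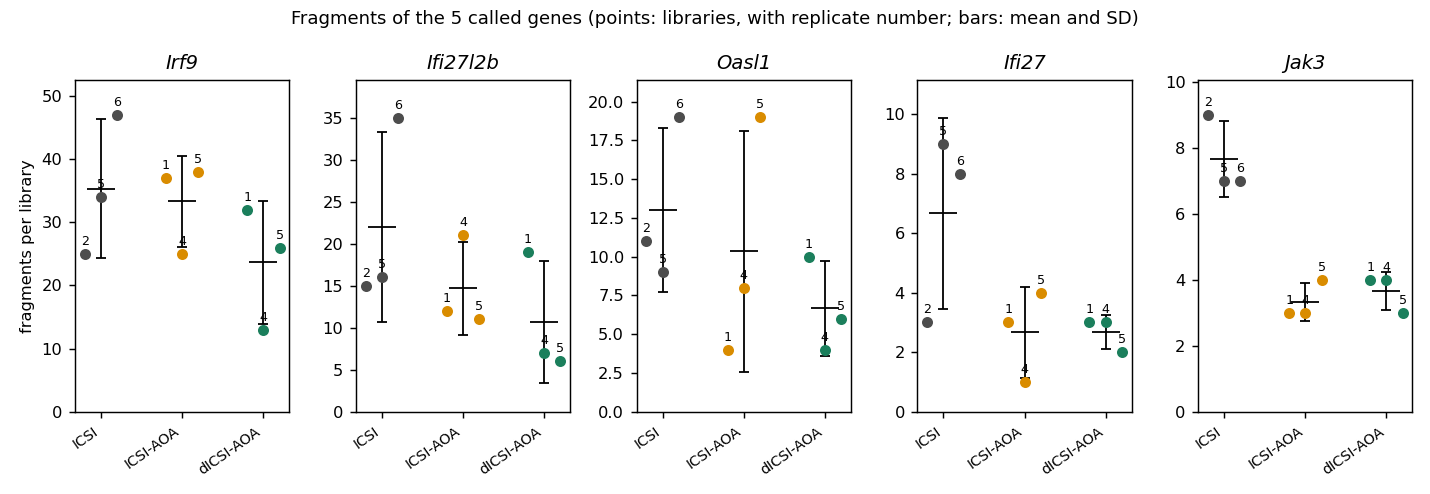
Points are fragments in each library (numbers are replicates), with the mean and SD of each group of 3, for the 5 called genes. Jak3 is at 7 to 9 fragments in ICSI and 3 to 4 in both AOA groups, while for Irf9 and Ifi27l2b the ICSI mean is raised by replicate 6, at 47 and 35 fragments.

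Between dICSI-AOA and ICSI-AOA, where both groups received ionomycin and the sperm differed, none of the 21 genes was called, against 6.6% of all tested genes. None had an unadjusted p under 0.05 by edgeR, and DESeq2 called none, while limma on log2(FPKM + 1) called Stat3. Stat3 passed the filter only through ICSI-AOA, at 5.23 FPKM, against 0.42 in ICSI and 0.38 in dICSI-AOA. That call rests on the values that admitted the gene, so nothing is drawn from it. Irf9 was nearest, at -0.54 (SE 0.31, adjusted p = 0.782 by edgeR), and it was called when ICSI-AOA replicate 4 or dICSI-AOA replicate 1 was left out. The largest difference was that of Ifi47, at 1.33, with 4 fragments in ICSI-AOA and 11 in dICSI-AOA. The median was 0.02, against -0.02 for all tested genes.

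**Figure D4:**
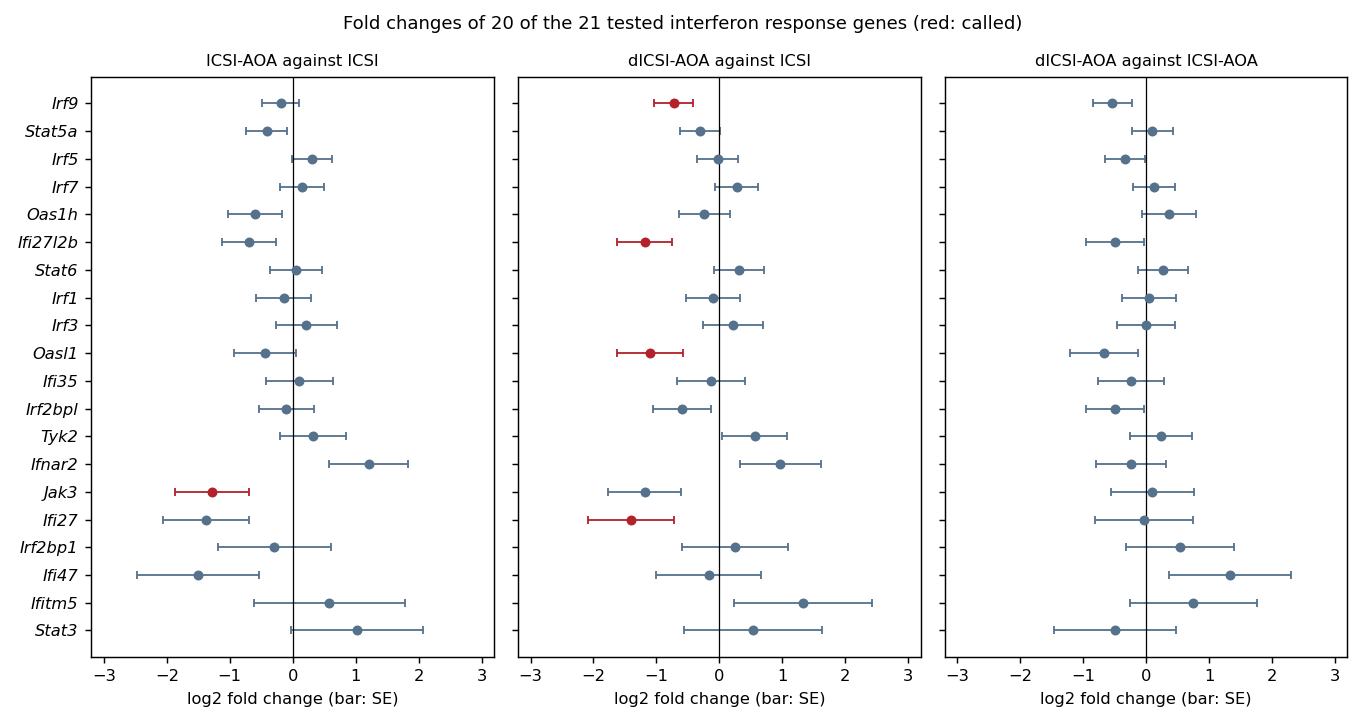
Each point is the log2 fold change of 1 gene, for 20 of the 21 tested genes, with its standard error, in the 3 comparisons; red marks the called genes. Jak3 is red for ICSI-AOA against ICSI, and Irf9, Ifi27l2b, Oasl1 and Ifi27 are red for dICSI-AOA against ICSI, all to the left of 0, and no gene is red between the AOA groups.

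Other genes of the pathway were taken from 6 lists. Over all genes, 53.75% were detected, and 6.6% to 7.06% of those tested were called in each comparison. Lists this short cannot show a lack of change. Of 19 interferon ligand genes in the table, 17 were listed at 0, among them Ifnb1 and Ifng, and Ifnk (interferon kappa, known from skin) held 338 fragments and Ifnz 2. Ifnk had 27, 40 and 29 fragments in ICSI, 37, 41 and 35 in ICSI-AOA, against 46, 33 and 50 in dICSI-AOA, and was not called in any comparison. Of 20 genes of nucleic acid sensing, 17 were detected, and none of the 4 tested was called. The most abundant was Ddx58, the RNA sensor RIG-I, with 253 fragments. Of 17 JAK-STAT regulators, 12 were detected, with Pias4, a SUMO ligase that restrains STATs, at 221 fragments. Socs1, the feedback inhibitor of the interferon receptors, was listed at 0, and none of the 5 tested was called.

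Of 37 further interferon-stimulated genes, 33 were detected and 9 tested. Parp9 held 344 fragments and shares 458 exon bases with Dtx3l on the other strand. Sp110, a nuclear body protein, was the only one called, lower in ICSI-AOA. It had 4, 9 and 8 fragments in ICSI, 3, 0 and 0 in ICSI-AOA, against 5, 3 and 2 in dICSI-AOA (log2 fold change -2.75, SE 0.88, adjusted p = 0.443 by edgeR). Every ICSI-AOA library lay below every ICSI library, and the share of all genes that separate in this way was not counted. Without ICSI-AOA replicate 1, which leaves that group at 0, the fitted value was -5.90 and is no bound, and limma on log2(FPKM + 1) gave -1.41 and no call. Sp110 shares 392 exon bases with G530012D18Rik on the other strand.

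All 15 antigen presentation genes were detected, led by the immunoproteasome subunit Psmb9 at 235 fragments, and none of the 10 tested was called. Of 16 genes of LIF and related receptors, 11 were detected. Ghr, the growth hormone receptor that signals through Stat5a, was called higher in dICSI-AOA than in ICSI-AOA, with 1, 30 and 20 fragments against 5, 9 and 5 (log2 fold change 1.38, SE 0.61, adjusted p = 0.694 by edgeR). One dICSI-AOA library lay below all ICSI-AOA libraries, and without dICSI-AOA replicate 4 the value was 0.64 and was not called. The call was also lost without dICSI-AOA replicate 5 or ICSI-AOA replicate 1 or 5, at 1.25 to 1.29. In ICSI, Ghr had 7, 16 and 18 fragments. Against ICSI its log2 fold change was -1.19 in ICSI-AOA and 0.19 in dICSI-AOA, and neither was called.

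In pools of whole blastocysts, fewer cells of a type and less RNA per cell cannot be told apart. Of 8 trophectoderm markers, 4 were detected (Gata3, Tead4, Eomes and Tfap2c were listed at 0). Their sum was 17 to 35 fragments in ICSI, 6 to 10 in ICSI-AOA and 11 to 16 in dICSI-AOA. Krt8, a keratin of that layer, was called lower in ICSI-AOA (log2 fold change -2.15, SE 0.62, adjusted p = 0.414 by edgeR). It was also called lower in dICSI-AOA (-1.69, SE 0.59, adjusted p = 0.508 by edgeR). Jak3 was called lower in ICSI-AOA only, although its log2 fold change was -1.29 there and -1.19 in dICSI-AOA. Ifi27 was called in dICSI-AOA only, at -1.41, against -1.37 in ICSI-AOA. Irf9, Ifi27l2b and Oasl1 were also called in dICSI-AOA only, at -0.73, -1.19 and -1.11, against -0.19, -0.70 and -0.44 in ICSI-AOA. Elf5 was called lower in ICSI-AOA (-1.53, SE 0.64, adjusted p = 0.599 by edgeR), with 2, 24 and 5 fragments in ICSI and 4, 4 and 3 in ICSI-AOA, so its ICSI mean and the top of the ICSI range rested on replicate 5. The part of trophectoderm content in those results was not tested. Of 8 markers of inner cell mass and primitive endoderm, 4 were detected, at 4 to 9 fragments per library in ICSI, 5 to 8 in ICSI-AOA and 4 to 7 in dICSI-AOA. Cumulus cell markers summed to at most 2 fragments per library, oocyte markers to at most 2, and all 8 sperm markers were listed at 0. Leukocyte markers summed to 52 to 77 fragments in ICSI, 60 to 66 in ICSI-AOA and 77 to 96 in dICSI-AOA, nearly all from Csf1r, which shares 873 exon bases with Hmgxb3 on the other strand, while Lyz2 and Cd3e were listed at 0. Csf1r was called higher in dICSI-AOA than in ICSI-AOA (log2 fold change 0.50, SE 0.21, adjusted p = 0.664 by edgeR).

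Detection was related to overlap with genes on the other strand. Of 4300 protein-coding genes with at least 100 exon bases shared with a gene on the other strand, 80.0% were detected, against 48.7% of 17513 without. Of the interferon response genes, 9 had such an overlap and 8 of them were detected, with 6 at 20 or more fragments (Irf5, Irf1, Ifi35, Tyk2, Ifi47 and Irf2bp2). Of the 65 without it, 48 were detected and 16 had 20 or more, among them Irf9, Stat5a, Irf7, Oas1h and Ifi27l2b. Both library kits named by the sources keep the strand, but whether strand was used in counting is not given in the sources used here. For Irf5, Irf1, Ifi35, Tyk2, Ifi47 and Irf2bp2, the part that came from the other strand was not tested.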

How the data were processed

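Members were the genes whose symbol matched a fixed pattern, and they and the gene lists were chosen with earlier results of these data known. The authors trimmed reads with cutadapt 1.9.3, aligned them with HISAT2 to mm10 and made FPKM values and estimated counts with Cuffdiff and Ensembl gene models. The versions of HISAT2 and Cuffdiff and the use of strand are not given in the sources used here. The paper names a SMARTer kit and the labels a TruSeq kit. The deposited estimated counts were divided by the single step of each library and rounded to fragments, and 95.7% to 96.2% of values that were not 0 lay within 0.01 of a whole number. FPKM values deposited by the authors were used for levels, for the filter and as limma input.

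Fragments were fitted with edgeR 4.0.16 in R 4.3.3 (TMM scaling, all 9 libraries, 1 mean per group). Genes with a mean of at least 1 FPKM were tested, and a call needed a fold over 1.3 and an unadjusted p under 0.05. Alternatives were relative log expression scaling, the authors' factors, no filter, a mean of at least 10 fragments, DESeq2 1.42.0, limma 3.58.1 on log2(FPKM + 1) and log2(FPKM + 0.1), each library left out and a replicate block. The fit was tested on simulated data. The text names every called gene, every gene with 20 or more fragments except 2 that are not reported here, the leading gene of each role, and of the other lists the called and the leading genes. Genes named beyond these were chosen after their values were seen. Exon overlaps and coordinates came from GENCODE vM21, matched to 74 of the 78 genes. Intervals and floors cover counting error only. The authors' own fold changes and p-values were not used.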

Additional observations from a re-analysis of the deposited data

How the results depend on the processing

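The 5 called genes had 36 to 277 fragments over all libraries, and the counts of calls moved with several choices. In ICSI-AOA against ICSI, where 1 gene (Jak3) was called, 0 genes were called by DESeq2 (3.39% of all genes tested were), by limma with a pseudocount of 1 (7.71%) or 0.1 (7.74%), or among genes averaging at least 10 fragments (9.37%). The call passed to Ifnar2 with no filter (4.36%) and with the authors' factors (7.88%), relative log expression scaling kept Jak3, and calls numbered 0 to 3 when a library was left out. In dICSI-AOA against ICSI, where 4 were called, relative log expression scaling called 5 (adding Jak3, 6.53% of all genes), no filter 4 (Irf2bp2 in place of Ifi27, 3.85%), the authors' factors 1 (Ifnar2, 11.6%), a mean of at least 10 fragments 2 (Irf9 and Ifi27l2b, 8.73%), DESeq2 1 (Ifi27l2b, 3.09%), limma 0 at either pseudocount (10.1% and 9.88%), and leaving out a library 0 to 4. Limma ran on the authors' FPKM, which moved the median of all tested genes upward, as their factors did. With pseudocounts of 1 and 0.1 the median was 0.28 and 0.35 in dICSI-AOA against ICSI. It was 0.20 and 0.25 in ICSI-AOA against ICSI. In dICSI-AOA against ICSI-AOA, where 0 were called, limma on log2(FPKM + 1) called 1 and leaving out a library gave 0 to 2. The limma call was Stat3, which passed the filter only through its ICSI-AOA FPKM. Irf9, Ifi27l2b, Oasl1 and Ifi27 kept values below 0 in dICSI-AOA against ICSI under every alternative run. Ifnar2 in dICSI-AOA against ICSI ran from -0.060 without dICSI-AOA replicate 4, its highest library, to 1.33 without ICSI replicate 2 when libraries were left out, and was 1.40, and called, with the authors' factors. The cause of these changes was not tested.

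Deviations from the group means correlated at 0.0794, 0.00236 and 0.0528 between AOA libraries of the same replicate number, and between others at -0.0765 to 0.028, so the numbers were not taken to pair the samples. With the replicate block, 0 genes were called between the AOA groups. The called genes had 1 to 47 fragments per library, and with 3 libraries per group this depth limits the precision of each fold.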
